A study of Mus musculus with 8 samples.

Results

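Broad Polycomb domains are long stretches of chromatin that carry H3K27me3 without a break. Here a domain is a region, merged from the H3K27me3 peak lists of 4 libraries, in which at least 1 list held a single peak of 10 kb or more. The domains were thus chosen by measured peak widths, and 325 of 26634 merged H3K27me3 regions met the rule. H3K27me3 is written by Polycomb repressive complex 2 and can be bound by Polycomb repressive complex 1, and both complexes help to keep genes silent. Domains of many kilobases are known mainly from genes of embryonic development, which germline cells hold silent. H3K4me3 marks active or poised promoters. Promoters inside such domains often carry both marks and are then called bivalent.

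The cells were mouse germline stem cells, which are spermatogonial stem cells kept in culture, from testis. Their donors were Green mice, which are labelled C57BL/6 Tg14(act-EGFP)OsbY01 of DBA/2 background and carry a transgene for a green fluorescent protein, and the genotype is labelled wild type. All groups were grown with human FGF2, rat GDNF and fetal bovine serum, for about 5 months (5M in the plots) or about 60 months (60M). Each mark and age had 2 libraries, 8 in all. Whether the libraries of a group stem from different cultures is not labelled, and p-values measure only the spread between these libraries, which may be technical.

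The lists held 12002 to 14940 H3K27me3 peaks covering 25.4 to 34.9 Mb, and 41637 to 47415 H3K4me3 peaks covering 95.5 to 101.1 Mb. They give no read totals, so depth is unknown. Of the 4 H3K27me3 lists, that of 5-month library 2 stood apart: it covered the most sequence and held a peak of 10 kb or more in 279 domains, against 166 in 5-month library 1 and 129 and 87 in the 60-month libraries. Positions follow the chromosome lengths of mm9, and no gene annotation of that build was used. Domains are therefore named by position, no gene, exon or sequence is assigned to them, and cell type markers were not analysed here. With 2 libraries against 2, an exact two-sided permutation test cannot give a p below 0.333, so no comparison of the ages could pass a threshold of 0.05.

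The 325 domains were 10 to 25 kb long, with a median of 12 kb, and together spanned 4277 kb. They made up 11.4 to 14.0% of all H3K27me3-covered sequence of a list. Nearly all were listed in every library in some form: 319 of 325 had H3K27me3 peaks in all 4 lists, 2 had none at 60 months and 1 had none at 5 months. What varied was whether the stretch appeared as a single broad peak. A peak of 10 kb or more was present in all 4 lists in 47 domains, in 3 lists in 56, in 2 lists in 83 and in 1 list in 139. Of the 139, 105 owed their place to 5-month library 2 alone, 10 to 5-month library 1, and 16 and 8 to the 60-month libraries. At the threshold itself, 82 domains had a widest peak of exactly 10 kb and 121 regions just outside had one of 9 kb. Covered length in the 82 was 8.35 and 9.52 kb in the 5-month libraries and 7.87 and 6.98 kb in the 60-month libraries. In the 121 it was 7.24, 8.37, 6.95 and 5.98 kb in the same order.

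Domains lay on all 19 autosomes and on the X chromosome. Their density was highest on chromosome 12, with 23 domains or 0.190 per Mb, and chromosome 13, with 22 or 0.183 per Mb. It was lowest on the X chromosome, with 4 domains or 0.0240 per Mb, and on chromosome 15, with 7 or 0.0676 per Mb. As a share of the H3K27me3 regions of each chromosome, chromosome 12 was again highest at 2.13% and the X chromosome, at 1.03%, lay inside the range of the autosomes. Some domains had close neighbours: 58 of 325 had another domain within 100 kb.

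H3K27me3 peaks covered less of the domains at 60 months than at 5 months. In bulk chromatin, fewer cells with the mark and less mark per cell cannot be told apart. Mean covered length was 11.1 and 12.3 kb per domain in 5-month libraries 1 and 2, and 10.4 and 9.19 kb in 60-month libraries 1 and 2. The mean was 11.7 ± 0.840 kb at 5 months and 9.78 ± 0.822 kb at 60 months (SD, n = 2), a difference of -1.92 kb, and both 5-month libraries lay above both 60-month libraries. Because the domains were chosen by widths in these same lists, this is a description and was not tested. Peaks covered 84.3 and 93.4% of the domains' length at 5 months, and 78.7 and 69.9% at 60 months. As a share of all H3K27me3-covered sequence of a list, the domains made up 14.0 and 11.5% at 5 months. At 60 months they made up 11.4 and 11.8%, so the ages overlapped by this measure. The size of the difference in covered length depended on 5-month library 2. Without it, 220 domains remained and the difference was -0.895 kb.

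Domains were also listed in more pieces at 60 months. A listed domain held 1.66 and 1.17 H3K27me3 peaks at 5 months and 1.82 and 1.91 at 60 months, or 1.42 ± 0.347 and 1.86 ± 0.0605 (SD, n = 2). The widest peak in a domain averaged 9.52 and 11.8 kb at 5 months and 8.31 and 7.15 kb at 60 months. Domains listed as 1 peak, of any width, numbered 168 and 274 at 5 months and 127 and 110 at 60 months. Domains covered over their whole length numbered 60 and 171 at 5 months and 53 and 23 at 60 months. Domains broken into 3 or more peaks numbered 48 and 5 at 5 months and 58 and 60 at 60 months. In these counts 5-month library 1 lay closer to the 60-month libraries than to 5-month library 2, and without it the difference in peaks per domain was 0.710 instead of 0.448. By the authors' signal maximum, whose scaling is not stated, the strongest H3K27me3 peak of a domain had a median percentile of 96.4 and 97.1 within the 5-month lists and of 96.4 and 94.9 within the 60-month lists.

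**Figure D1:**
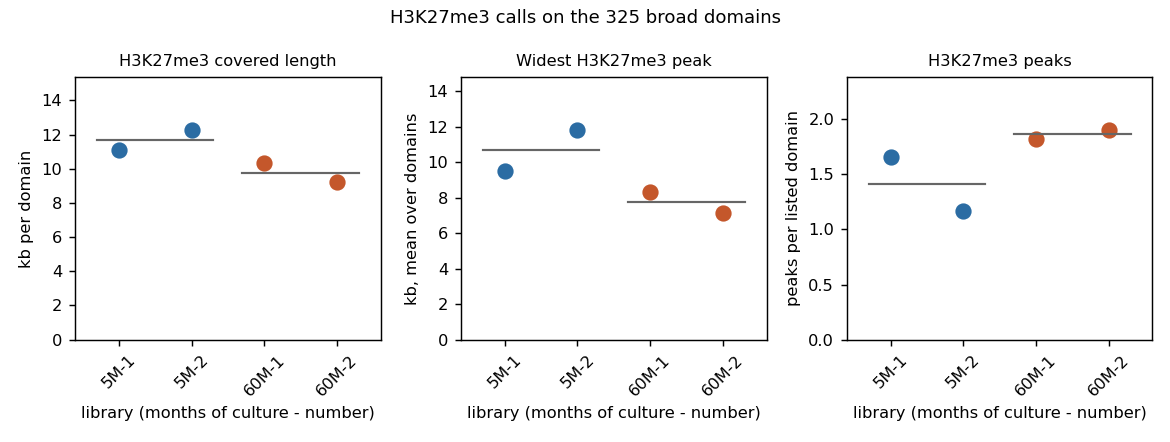
Mean H3K27me3-covered length per domain (kb), mean widest peak (kb) and number of peaks per listed domain for each of the 4 libraries. Points are libraries and lines are means of 2. Covered length goes from 11.1 and 12.3 kb at 5 months to 10.4 and 9.19 kb at 60 months, while the 5-month libraries lie further apart in peak number (1.66 and 1.17) than the 60-month libraries (1.82 and 1.91).

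Domain by domain, lower cover at 60 months was more frequent than higher cover. In 148 of 325 domains both 60-month libraries covered fewer bases than both 5-month libraries, in 17 both covered more, and in 160 the ages overlapped. Over all 26634 merged H3K27me3 regions the same rule gave 10.7% lower and 6.74% higher. Among the 653 regions just below the threshold, with a widest peak of 7 to 9 kb, 215 (32.9%) were lower and 57 (8.73%) higher. In 63 domains both 60-month libraries held more peaks than both 5-month libraries (5.08% of all regions). In 7 they held fewer while still listed (0.165% of all regions). The 5.08% also counts regions with no peak at 5 months, so it does not measure division into pieces. A peak of 10 kb or more was present in both 5-month libraries and neither 60-month library in 54 domains, and the reverse held in 7. Any region with such a peak is a domain, so these same domains are the 0.203% and 0.0263% of all regions. The rule for domains used these widths, so nothing is read from these shares.

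Widths were also read in libraries whose own peak widths had no part in the choice. The borders of the regions still came from peaks merged over all H3K27me3 lists. When regions were chosen by a peak of 10 kb or more in 1 library alone, the 3 other libraries gave widths that the choice had not used. The 166 regions chosen on 5-month library 1 had a mean widest peak of 13.0 kb in the held-out 5-month library 2, and of 9.49 and 8.30 kb in the 60-month libraries. The 279 chosen on 5-month library 2 had 9.92 kb in 5-month library 1 and 8.21 and 7.04 kb at 60 months. Regions chosen on a 60-month library gave the same order in their held-out libraries. The 129 chosen on 60-month library 1 had 9.27 kb in 60-month library 2 against 10.9 and 12.7 kb at 5 months. The 87 chosen on 60-month library 2 had 11.1 kb in 60-month library 1 against 11.4 and 12.6 kb at 5 months.

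Covered length followed the same order except in the last set. For regions chosen on 60-month library 2, 60-month library 1 covered 12.9 kb per region, between the 12.8 and 13.3 kb of the 5-month libraries. For regions chosen on 60-month library 1, the held-out 60-month library covered 11.5 kb against 12.5 and 13.3 kb at 5 months. For those chosen on 5-month library 1 and 5-month library 2, the held-out 5-month library covered 13.6 and 11.5 kb, and the 60-month libraries 10.7 to 11.8 kb and 9.25 to 10.4 kb. Shares of regions with a peak of 10 kb or more differed in the same way. Of the 166 chosen on 5-month library 1, 91.0% had one in 5-month library 2, and 51.2 and 39.2% had one in the 60-month libraries. Of the 129 chosen on 60-month library 1, 46.5% had one in 60-month library 2, and 65.9 and 79.8% in the 5-month libraries. No p was computed for these values.

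**Figure D2:**
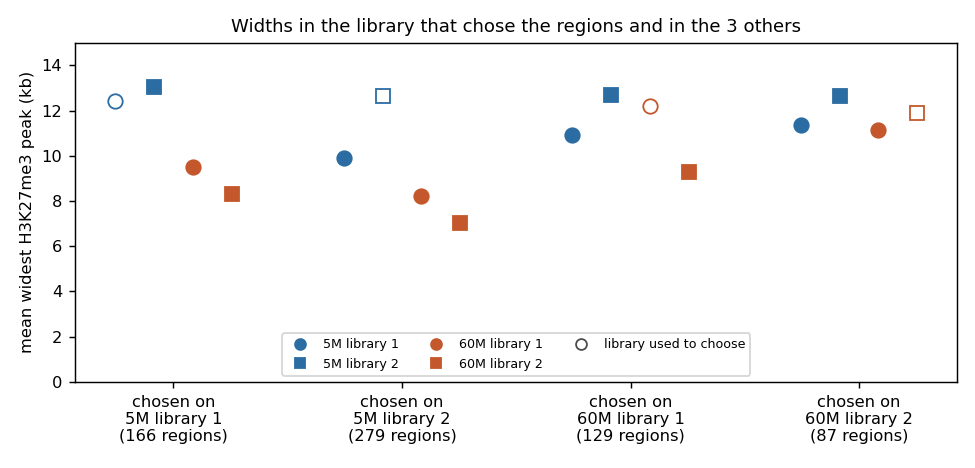
Mean widest H3K27me3 peak (kb) of regions chosen on 1 library, read in that library (open symbol) and in the other libraries (filled symbols). Circles are library 1 and squares library 2 of each age. In each of the 4 sets the held-out 60-month libraries lie below the held-out 5-month libraries, by the least (11.1 against 11.4 and 12.6 kb) in regions chosen on 60-month library 2.

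The most extensive domains varied in how they were divided. Averaged over the 4 lists, the domain on chromosome 1 at 78187000 to 78211999 and that on chromosome 14 at 49271000 to 49295999 were covered over the most bases, 22.5 kb each of 25 kb. The chromosome 1 domain was a single 25 kb peak in both 5-month libraries. At 60 months it was covered over 22 and 18 kb, in 3 and 4 peaks. The chromosome 14 domain was covered over 24 and 25 kb at 5 months in 2 and 1 peaks, and over 23 and 18 kb at 60 months in 2 and 5 peaks. By contrast, the 25 kb domain on chromosome 13 at 78312000 to 78336999 was covered over 20 and 21 kb at 5 months and 21 kb in both 60-month libraries. The domain on chromosome 4 at 114721000 to 114742999 also overlapped between the ages, with 19 and 21 kb at 5 months and 20 and 19 kb at 60 months. On chromosome 12 at 58633000 to 58656999, a domain of 23 kb in a single peak of 5-month library 2 was listed as 3 peaks in 5-month library 1 and as 5 peaks in both 60-month libraries. Those on chromosome 5 at 29796000 to 29816999, on chromosome 6 at 23192000 to 23212999 and on chromosome 8 at 59812000 to 59832999 completed the 8 with the most covered bases, and covered 17 to 21 kb in each list. The highest number of peaks in one list was 5, reached in 3 domains: those on chromosomes 12 and 14 just described, and one on chromosome 13 at 117083000 to 117096999, with 4 and 1 peaks at 5 months against 5 and 4 at 60 months. In a further 29 domains the highest number was 4. The longest of these were the chromosome 1 domain above, one on chromosome 18 at 76769000 to 76789999, where 5-month library 1 was the most divided with 4 peaks, and one on the X chromosome at 90523000 to 90544999, with 4 and 2 peaks at 5 months and 2 and 4 at 60 months.

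**Figure D3:**
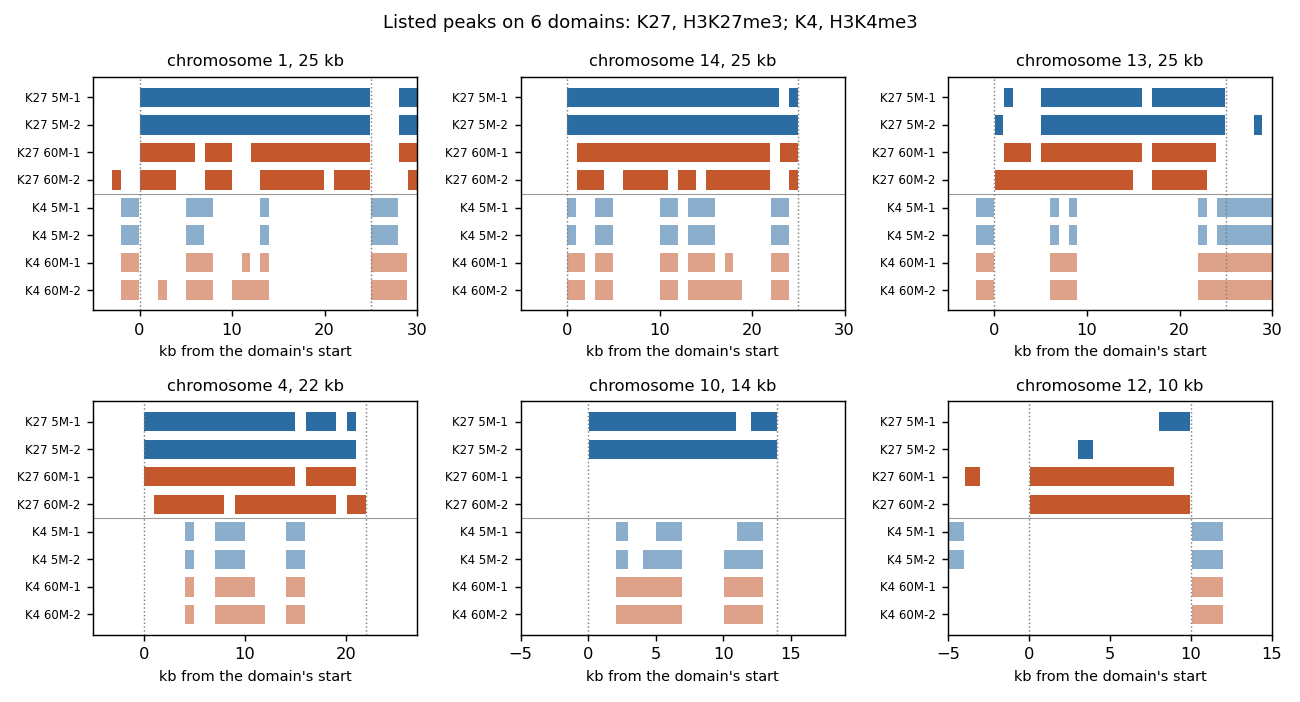
Listed peaks of each library on 6 domains, drawn to scale in kb from the domain's start. Upper rows are H3K27me3 (K27) and lower rows H3K4me3 (K4), blue at 5 months and orange at 60 months, and dotted lines mark the domain's ends. The 4 domains with the most covered bases (chromosomes 1, 14, 13 and 4) are followed by that with the largest fall (chromosome 10, no H3K27me3 peak at 60 months) and that with the largest rise (chromosome 12, 2 and 1 kb at 5 months against 9 and 10 kb at 60 months).

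A few domains had little or no H3K27me3 listed at 60 months. Among domains whose ages did not overlap, the largest difference was on chromosome 10 at 49497000 to 49510999, with 13 and 14 kb covered at 5 months and no peak in either 60-month library. H3K4me3 was listed over 5 and 7 kb of it at 5 months and over 8 kb in both 60-month libraries. On chromosome 16 at 94756000 to 94773999, coverage was 16 and 18 kb at 5 months and 6 kb in both 60-month libraries. A 17 kb domain on chromosome 7 at 16535000 to 16551999 was covered over 8 and 17 kb at 5 months and over 5 and 0 kb at 60 months, so that both ages were uneven. On chromosome 1 at 42756000 to 42766999 the values were 11 kb in both 5-month libraries and 3 and 1 kb at 60 months, and on chromosome 12 at 104550000 to 104562999 they were 11 and 13 kb against 3 kb in both. In both of these H3K4me3 cover was higher at 60 months, from 1 kb to 3 kb on chromosome 1 and from 3 kb to 6 and 5 kb on chromosome 12. On chromosome 4 at 122862000 to 122871999, in contrast, both marks were lower: H3K27me3 covered 10 kb in both 5-month libraries and 1 kb in both 60-month libraries, and H3K4me3 covered 2 kb in both and then 0 and 1 kb.

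Among domains whose ages did not overlap, differences towards higher H3K27me3 cover were smaller. The largest was on chromosome 12 at 4870000 to 4879999, where H3K27me3 covered 2 and 1 kb at 5 months and 9 and 10 kb at 60 months, with no H3K4me3 peak inside in any library. On chromosome 10 at 61864000 to 61874999 the values were 4 and 3 kb against 9 and 11 kb. Chromosome 5 at 92815000 to 92825999 gave 4 and 5 kb against 11 and 9 kb. The next, each a mean of 4.5 kb, lay on chromosome 6 at 28394000 to 28404999, on chromosome 7 at 147236000 to 147252999, and on chromosome 19 at 4990000 to 5000999. The last became a difference of -1.5 kb when peaks with a −log10 p under 6 were left out. H3K4me3 cover of these 6 domains overlapped between the ages.

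H3K4me3 was not used to choose the domains, and nearly all of them held it. An H3K4me3 peak lay on 302 and 306 domains in the 5-month libraries and on 308 and 310 in the 60-month libraries, or 92.9 to 95.4%. Among all merged H3K27me3 regions, which are mostly narrow, the share was 19.9 to 22.5%. In regions just below the threshold, with a widest H3K27me3 peak of 7 to 9 kb (653 near-domains), it was 82.5 to 86.1%. Of the 325 domains, 297 had H3K4me3 in all 4 lists and 10 in none. The 10 included a domain that was broad at both ages. This domain, on chromosome 17 at 45666000 to 45680999, held a peak of 10 kb or more in all 4 H3K27me3 lists, covering 15, 15, 15 and 13 kb. It was singled out after its values were seen.

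H3K4me3 covered more of the domains at 60 months, in contrast to H3K27me3. It covered 3.56 and 3.75 kb per domain in the 5-month libraries and 4.14 and 4.78 kb in the 60-month libraries. The means were 3.66 ± 0.135 kb and 4.46 ± 0.457 kb (SD, n = 2), a ratio of 1.22, and the ages did not overlap (exact two-sided permutation test, p = 0.333, the smallest possible). Summed over all domains, cover was 1158 and 1220 kb at 5 months and 1345 and 1555 kb at 60 months. Over all peaks the 60-month lists covered 98.3 and 95.5 Mb, against 96.6 and 101.1 Mb at 5 months. The share of all H3K4me3-covered sequence that lay in domains went from 1.2 and 1.21% to 1.37 and 1.63%. The value of 60-month library 2 was the highest. Without that library the difference was 0.480 kb per domain instead of 0.803 kb.

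The ages differed in the width of H3K4me3 peaks on domains by more than in their number. Domains held 1.69 and 1.73 H3K4me3 peaks at 5 months and 1.74 and 1.8 at 60 months, a ratio of 1.04. Each such peak covered 2.11 and 2.17 kb inside the domain at 5 months and 2.38 and 2.65 kb at 60 months, a ratio of 1.18. Domains with an H3K4me3 peak of 5 kb or more numbered 66 and 84 at 5 months and 102 and 128 at 60 months. The ages did not overlap in any of these measures, and each gave the smallest possible p of 0.333 (exact two-sided permutation test). When neighbouring peaks up to 1 kb apart were merged into regions first, peak number overlapped between the ages, and with a threshold of 8 kb its difference was 0.00309 instead of 0.0631.

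**Figure D4:**
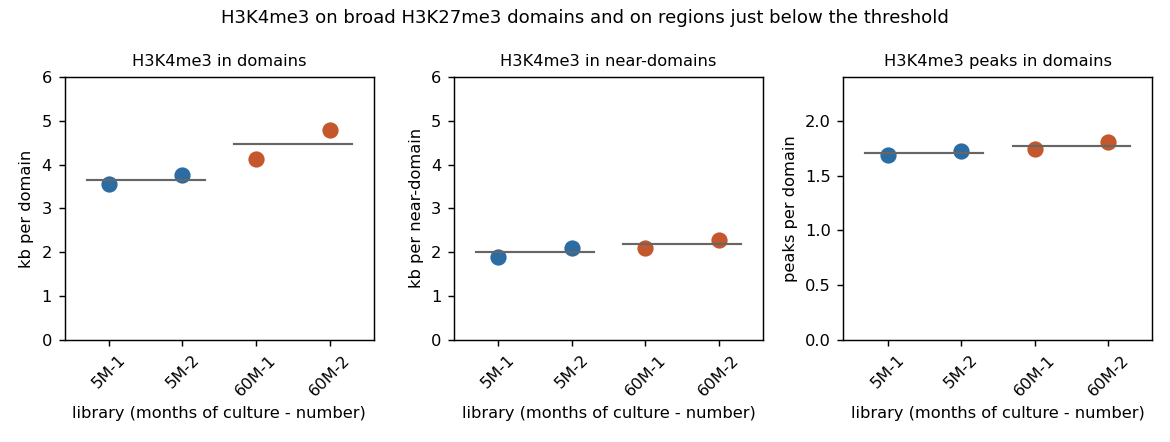
H3K4me3-covered length (kb) per domain and per near-domain, and number of H3K4me3 peaks per domain, for each of the 4 libraries. Points are libraries and lines are means of 2. Covered length per domain is 3.56 and 3.75 kb at 5 months and 4.14 and 4.78 kb at 60 months, with a smaller step in near-domains.

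Per domain, H3K4me3 cover was higher in both 60-month libraries than in both 5-month libraries in 96 of 325 (29.5%) and lower in 5 (1.54%). Under the same rule, 2.27% of all merged H3K27me3 regions were higher and 2.69% lower, most of these regions having no H3K4me3 peak. Of all merged H3K4me3 regions, 9.78% were higher and 12.5% lower. Near-domains gave 10.6% higher and 4.13% lower. Domains were longer than near-domains (median 12 kb against 8 kb), so these shares were not taken at like lengths. A change from no H3K4me3 peak in either 5-month library to a peak in both 60-month libraries was seen in 6 domains (1.00% of all H3K27me3 regions), and the reverse in 2 (2.41%).

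Of the 6, 2 were domains that kept a broad H3K27me3 peak in every list. On chromosome 1 at 19213000 to 19230999, H3K4me3 was listed over 3 and 6 kb at 60 months and over none at 5 months, while H3K27me3 covered 16 and 18 kb at 5 months and 15 and 16 kb at 60 months. On chromosome 18 at 37098000 to 37117999, H3K4me3 was listed over 5 and 7 kb at 60 months and over none at 5 months, and H3K27me3 covered 16, 18, 19 and 18 kb. In both, H3K27me3 cover overlapped between the ages. In the other domains listed with H3K4me3 at 60 months only, H3K27me3 was lower at 60 months in those on chromosome 5 at 120131000 to 120140999, on chromosome 6 at 16941000 to 16950999 and on chromosome 14 at 104759000 to 104768999, and higher in that on chromosome 18 (37673000 to 37682999). The 2 domains with H3K4me3 at 5 months only were on chromosome 3 at 78824000 to 78834999 (3 kb in both 5-month libraries) and chromosome 14 at 31365000 to 31374999 (2 kb in both). In these H3K27me3 was lower at 60 months as well, from 9 and 11 kb to 1 and 2 kb and from 8 and 10 kb to 4 and 3 kb.

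The 47 domains with a peak of 10 kb or more in all 4 lists were broad at both ages. No list alone could bring a domain in, but any list could leave one out. The fewest domains with such a peak were in 60-month library 2 (87). H3K27me3 covered 14.8 and 15.3 kb per domain in them at 5 months and 14.5 and 14.0 kb at 60 months. It was lower at 60 months in 11 (23.4%) and higher in 2 (4.26%). The shares were 10.7% and 6.74% for all H3K27me3 regions and 32.9% and 8.73% for near-domains. Nothing is read from these counts because the same lists chose the 47. H3K4me3 covered 3.96 and 4.13 kb at 5 months and 4.77 and 5.98 kb at 60 months. It was higher at 60 months in 20 of the 47 (42.6%) and lower in 0. Near-domains gave 10.6% higher and 4.13% lower, and all merged H3K4me3 regions 9.78% and 12.5%. Of all H3K27me3 regions, most of which have no H3K4me3 peak, 2.27% were higher and 2.69% lower. The 47 had a median length of 16 kb, against 12 kb for all domains and 8 kb for near-domains, so these shares were not taken at like lengths. Besides the domains on chromosomes 18 and 1 just described, large H3K4me3 differences among the 47 were seen on chromosome 9 at 69603000 to 69621999 (6 and 7 kb at 5 months, 8 and 11 kb at 60 months) and chromosome 13 at 95634000 to 95654999 (7 kb in both, then 9 and 12 kb). These were picked after their values were seen. The H3K4me3 difference in the 47 domains was 1.33 kb per domain (exact two-sided permutation test, p = 0.333).

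Of the 6 domains with the most H3K4me3, those on the X chromosome, chromosome 12 and chromosome 9 overlapped between the ages in H3K4me3 cover, and the others did not. The domain on the X chromosome at 90523000 to 90544999 held 13 kb of H3K4me3 in each of the 4 libraries, while H3K27me3 covered 16 and 21 kb at 5 months and 13 and 14 kb at 60 months. The chromosome 12 domain at 58633000 to 58656999 held 9 and 13 kb at 5 months and 13 and 14 kb at 60 months. The chromosome 14 domain at 49271000 to 49295999 held 10 kb in both 5-month libraries and 12 and 14 kb at 60 months. On chromosome 13, a domain at 36812000 to 36827999 held 8 and 9 kb and then 10 and 11 kb, and one at 73394000 to 73408999 held 7 and 9 kb and then 10 kb in both. In both of these H3K27me3 was 1 peak in each 5-month library and 2 to 4 peaks at 60 months. On chromosome 9 at 62984000 to 63003999, H3K4me3 covered 9 kb in 3 libraries and 10 kb in 60-month library 2.

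The width of single H3K4me3 regions gave the same picture. Of 487 H3K4me3 regions on domains that were listed in all 4 libraries, 90 (18.5%) were wider in both 60-month libraries and 4 (0.821%) narrower. Shares of wider regions were 10.4% on near-domains (569 regions), 10.9% on other H3K27me3 regions (3829) and 6.77% off H3K27me3 (30344). Those of narrower regions were 0.703, 2.72 and 2.52% in the same order, so few narrowed on near-domains as well. Regions were also compared at like widths. Among those of 3 kb to under 5 kb at 5 months, 16.3% on domains were wider, against 7.95, 6.39 and 3.65% in the other classes in the same order. Among those of 5 kb or more the shares were 25.3, 17.2, 9.62 and 5.65%, and among those under 3 kb they were 17.2, 10.4, 13.3 and 8.37%. Several regions can lie on 1 domain, so these shares are descriptions of the 4 libraries.

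The difference between domains and near-domains was itself compared over libraries. H3K4me3 covered 1.99 ± 0.132 kb per near-domain at 5 months and 2.19 ± 0.122 kb at 60 months (SD, n = 2), a ratio of 1.1 against 1.22 in domains. The log2 ratio of cover per domain to cover per near-domain was 0.91 and 0.85 at 5 months and 0.97 and 1.07 at 60 months. The ages did not overlap, with a difference of 0.14 (exact two-sided permutation test, p = 0.333). These values are per region, and domains were longer (median 12 kb against 8 kb). By length, H3K4me3 lay on 27.1 and 28.5% of the domains at 5 months and on 31.4 and 36.4% at 60 months. For near-domains the shares were 23.7 and 26.0%, then 26.2 and 28.4%. H3K27me3 cover per near-domain was 6.04 and 7.0 kb at 5 months and 5.77 and 5.05 kb at 60 months, a ratio of 0.829 against 0.836 in domains.

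The breaks in H3K27me3 at 60 months lay largely on H3K4me3 peaks. A gap is here any kb between the first and last H3K27me3 peak of a list in a domain that the list leaves uncovered. Every such kb is covered in at least 1 other list, since the region would otherwise have been split. Gaps totalled 290 and 74 kb in the 5-month libraries and 412 and 503 kb in the 60-month libraries. In 60-month libraries 1 and 2, H3K4me3 was listed in both libraries of that age on 70.4 and 67.6% of the gap length, against 25.7 and 24.9% of the H3K27me3-covered length. In 5-month library 1 the gap share was 49.3% against 25.3% of covered length, and in 5-month library 2 it was 25.7% against 27.2%. Gaps were thus richer in H3K4me3 than covered sequence in 3 of 4 libraries, and the few gaps of 5-month library 2 were not. The gap share averaged 37.5 ± 16.7% at 5 months and 69.0 ± 1.98% at 60 months (SD, n = 2). This was not tested, because gaps come from the H3K27me3 lists that chose the domains and both values of an age use the same pair of H3K4me3 libraries. Without 5-month library 1 of H3K27me3, whose gap share was the higher at 5 months, the difference was 52.1 percentage points instead of 31.5.

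The shares were also taken away from the domains' ends. When kb within 3 kb of an end were left out, the shares in the 60-month libraries were 73.8 and 70.0% of gaps and 32.9 and 31.6% of covered length. In the 5-month libraries they were 55.6 and 30.2% of gaps and 30.2 and 32.5% of covered length. Gaps of 2 kb or more were those that differed most in number, with 50 and 14 at 5 months and 109 and 131 at 60 months. Gaps of 1 kb overlapped between the ages, with 164 and 41 against 156 and 158. In gaps of 2 kb or more, H3K4me3 was listed on 48.4 and 6.06% of the length at 5 months and on 71.1 and 68.7% at 60 months.

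**Figure D5:**
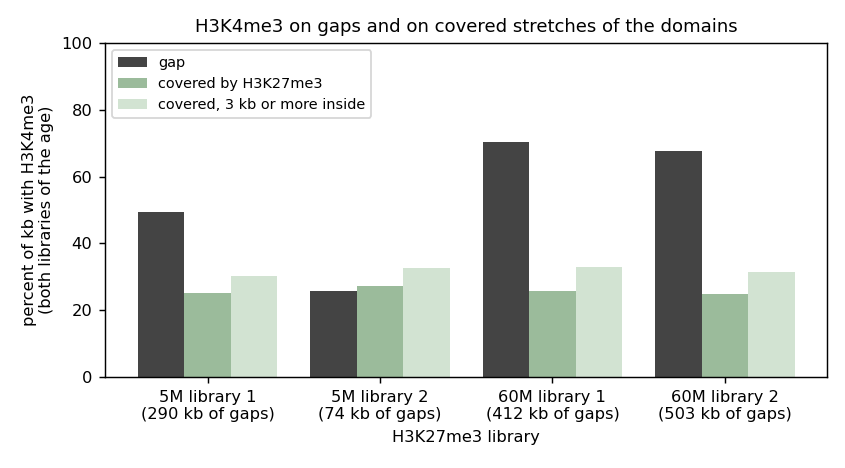
Percent of the domains' length with H3K4me3 in both libraries of the same age, for gaps in the H3K27me3 calls, for covered stretches, and for covered stretches 3 kb or more inside the domain, by H3K27me3 library. Gap bars stand at 70.4 and 67.6% in the 60-month libraries, 49.3% in 5-month library 1 and 25.7% in 5-month library 2, and covered bars between 24.9 and 27.2%.

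H3K4me3 at these breaks was already listed at 5 months. Gaps shared by both 60-month libraries amounted to 243 kb in 144 domains. Of this length 72.8% carried H3K4me3 in both 5-month libraries and 79.8% in both 60-month libraries. Gaps shared by both 5-month libraries came to 31 kb in 19 domains, with 16.1 and 19.4%. In near-domains, H3K4me3 lay on 44.5 and 34.2% of gap length in the 5-month libraries, against 23.3 and 24.7% of covered length, and on 63.5 and 56.4% in the 60-month libraries, against 21.1 and 22.4%. There the gap share was above the covered share in all 4 libraries, 5-month library 2 included. When peaks up to 1 kb or 3 kb apart were merged, uncovered stretches between neighbouring peaks counted as gaps too. The age difference of 31.5 percentage points was then 13.7 and 7.44 points, while at 60 months gaps still exceeded covered length by 38.8 and 37.5 points.

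Stretches with H3K27me3 in every list (kept), at 5 months only (lost) and at 60 months only (gained) were compared. Of 4277 kb in the domains, 2573 kb (60.2%) were covered in all 4 lists. A further 394 kb (9.21%), spread over 176 domains, were covered in both 5-month libraries and neither 60-month library, and 68 kb (1.59%), in 41 domains, the reverse. H3K4me3 lay on 46.4 and 47.2% of the lost stretches at 5 months and on 51.8 and 54.8% at 60 months. On the kept stretches it lay on 20.3 and 21.8% at 5 months and 25.3 and 31.6% at 60 months, and on the gained stretches on 2.94 to 4.41%. The remaining 1242 kb (29.0%) had H3K27me3 in other combinations of lists. H3K4me3 lay on 36.2 and 37.8% of this remainder at 5 months and on 39.2 and 42.1% at 60 months, also above the kept stretches. H3K4me3 that was listed in both 60-month libraries and neither 5-month library made up 4.31% of the lost and 3.42% of the kept length. Of the lost length, 50% lay within 3 kb of a domain's end, against 38.7% of the kept and 70.6% of the gained length.

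The marks were set side by side for whole domains. Of the 148 domains with lower H3K27me3 cover at 60 months, 53 (35.8%) had higher H3K4me3 cover, 4 had lower and 91 overlapped. Of the 160 domains with overlapping H3K27me3 cover, 40 (25.0%) had higher H3K4me3 cover, and of the 17 with higher H3K27me3 cover, 3 (17.6%) did. The difference between these shares was not tested.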

How the data were processed

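Chromatin immunoprecipitation sequencing of H3K27me3 and H3K4me3 came from formaldehyde-fixed cells lysed by sonication with or without MNase, and was deposited as 8 peak lists, one for each library, with no pooling. CASAVA 1.8.4, Bowtie 1.1.2 and build mm10 are named in the submitters' processing notes; which peak caller was used is not stated. The deposited lists give borders in steps of 1000 bp, a maximum immunoprecipitation signal of unstated scaling, 2 −log10 p-values, without and with the control (3.01 to a ceiling of 15.95), and a q-value of at most 0.00097, per the file headers. Peaks on 9 of 20 chromosomes ended past mm10, while mm9 lengths held except on chromosome 13 (overhang 688 bp; GenomeInfoDb 1.38.1). The reference tables are for another assembly, so planned gene lists and markers were not used.

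Peaks of the 4 H3K27me3 lists sharing at least 1 bp were merged, and cover, peaks and gaps were counted per library (Python 3.11.15, numpy 2.4.6, pandas 2.3.3; figures matplotlib 3.10.9). The counting code was tested on simulated data. Only H3K4me3 cover, peak and width measures and H3K4me3 on gaps were tested (exact two-sided permutation over libraries). A domain was lower or higher at 60 months when both 60-month libraries lay below or above both 5-month libraries. Named domains were, by rule, the 8 with most covered bases, the 6 with the largest fall and rise among those whose ages did not overlap, and the 6 with the most peaks in 1 list and the most H3K4me3 cover, with ties going to the longer domain. Domains were chosen with earlier results of these data known. The gap analysis, H3K4me3 region widths and kept or lost stretches were added after the data were seen. Alternatives were other merging distances, a −log10 p minimum of 6, equal list lengths, thresholds of 8 and 12 kb, left-out libraries, and membership in at least 2 or all 4 lists.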

Additional observations from a re-analysis of the deposited data

How the results depend on the processing

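With a p that cannot pass 0.05, H3K4me3 differences were compared across settings by direction alone, and their size varied. That in H3K4me3 on gaps, 31.5 points, was 7.44 to 52.1 and that in H3K4me3 peaks per domain, 0.0631, was 0.00309 to 0.223. The number of domains was 647 with a single-peak threshold of 8 kb and 171 with 12 kb. The H3K27me3 difference per domain, -1.92 kb, was -0.895 to -2.62 kb with 1 library left out (5-month library 2 and 60-month library 1) and -0.798 kb with a peak of 10 kb or more in all 4 lists. The difference in peaks per domain was 0.334 to 0.710 with 1 library left out (5-month library 2 and 5-month library 1) and 0.181 in those 47 domains, and that in the share of domains with a broad peak was -26.4 to -54.3 percentage points (the same libraries). H3K4me3 on gaps minus covered length at 60 months, 43.7 points, was 38.8 and 37.5 with peaks up to 1 or 3 kb apart merged, 52.1 with a −log10 p of at least 6, 46.4 and 54.3 for domains broad in at least 2 or all 4 lists, 39.7 inside the domains, and 42.2 to 46.7 with 1 library left out. The difference in the share of domains with H3K4me3, 1.54 points, was 0.159 with 3 kb merging, 4.26 in the 47 domains and -0.232 at 8 kb. The held-out covered length of regions chosen on 60-month library 2, -0.126 kb, was 0.00581 kb with 3 kb merging and 0.00488 kb at 8 kb. The chromosome 19 domain at 4990000 to 5000999 went from 4.5 to -1.5 kb with the −log10 p minimum. The cause of these differences was not tested.

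With the replicate number as a block, the differences stayed -1.92 kb for H3K27me3 and 0.803 kb for H3K4me3, and the exact permutation p for H3K4me3 was 0.5, the smallest that 2 pairs allow. Same-numbered libraries did not deviate together (correlation -0.0684 over domains), so the numbers were not used to pair samples. The lists hold no read totals, so how depth limits peak width cannot be told here.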
